A study of Mus musculus with 4 samples.

Results

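The insulin-like growth factor (IGF) system was followed through 10 genes, 2 ligands (*Igf1*, *Igf2*), 2 receptors (*Igf1r*, *Igf2r*) and 6 binding proteins (*Igfbp2* to *Igfbp7*), taken by gene symbol from the 48587 genes of the count table. The data are poly-A mRNA-seq of primary vascular smooth muscle cells (VSMCs), which grew out of the descending aorta of young adult C57BL/6J mice whose adventitia and endothelium had been removed. The cells carried a lentivirus with a hairpin against *Mettl14* (shMettl14, 2 libraries) or a control hairpin against a plant microRNA sequence (shCTR, 2 libraries), so that both groups were transduced and neither was an untouched culture. The libraries of each group bear the letters A and B, and no source says whether a letter stands for 1 mouse, 1 culture or 1 day, so the p-values measure the spread between these libraries, which may be technical. One hairpin per gene was sequenced, and the cells were cultured in serum, so that growth factors of the medium were present in both groups.

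IGF1 and IGF2 are small secreted growth factors that act through IGF1R, a receptor tyrosine kinase, and IGF1 is a known mitogen and survival factor of cultured VSMCs. IGF2R, the cation-independent mannose 6-phosphate receptor, takes IGF2 to the lysosome and also carries lysosomal enzymes. IGF binding proteins hold IGFs outside the cell, where they lengthen their life, keep them from the receptor, or release them when proteases cut the binding protein, and several also act on cells without IGF. METTL14 is the partner of METTL3 in the complex that writes N6-methyladenosine (m6A) on mRNA.

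Totals ranged from 114343653 to 124815868 counts per library, and 3 counts, up to which a gene listed at 0 could lie by counting error alone, were at most 0.0278 CPM (read counts scaled to equal library size with TMM factors). *Mettl14* had 2050 and 2154 counts in shCTR A and B and 546 and 568 counts in shMettl14 A and B, a log2 difference of −2.08 (standard error 0.25, unadjusted p = 0.00039 from edgeR, adjusted p = 1.0). The call of *Mettl14* changed with the test, since its adjusted p was 3.0e-07 with DESeq2 and 0.0039 with edgeR and a term for the letter. Every smooth muscle marker of a list of 8 was detected in every library, led by *Acta2* and *Tagln*. These 8 summed to 5772 to 6799 CPM with shCTR and 4442 to 4811 CPM with shMettl14. All 8 had a fitted log2 difference under 0, as did 9230 of the 18916 genes tested. Within both letters 6 of them were lower, against 27.6% of all genes. *Acta2* was at −0.58 (standard error 0.21, unadjusted p = 0.038 from edgeR). The study reported higher Acta2 and Cnn1 after *Mettl14* knockdown, but as protein rather than mRNA. The 8 endothelial markers were also at 0 in no library, and summed to 1833 and 3914 CPM in shCTR A and B and to 1723 and 2409 CPM in shMettl14 A and B, so that the labelled cell type was not the only one whose markers were present. *Emcn*, *Pecam1* and *Cdh5* made most of each sum. *Tie1* was at 134 to 171 CPM, and *Kdr*, *Tek*, *Vwf* and *Cldn5* reached at most 18.9 CPM. The 9 adventitial fibroblast markers summed to 743 to 918 CPM, with *Lum* at 0 in shCTR B. Most of this was *Cd34* (414 to 505 CPM) and *Ly6a* (195 to 282 CPM), while *Dpt*, *Pi16*, *Dpp4* and *Lum* reached at most 0.968 CPM. The 8 leukocyte markers summed to 6.66 to 9.89 CPM, with 0 to 4 of them at 0 counts in a library. In bulk RNA, fewer cells of a type and less RNA per cell cannot be told apart.

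All 10 IGF system genes were expressed above the low-count filter, and their levels spanned 0.194 to 4646 CPM. Per kilobase of merged exon, a rough basis for comparing genes, *Igfbp2* and *Igfbp7* were far above the rest in every library. Merged exons pool all annotated transcripts and can overstate length. For *Igf1* they span 9904 bases, against 2292 in its transcript with the longest coding part. The order given here holds for this divisor. *Igfbp2* stood at 2516 and 1898 CPM per kb in the A libraries (shCTR and shMettl14) and at 346 and 380 in the B libraries, and *Igfbp7* at 1007 and 1053 with shCTR A and B and 893 and 607 with shMettl14 A and B. *Igfbp2* was thus the first of the 10 in both A libraries and *Igfbp7* in both B libraries. *Igfbp3* followed at 74.8 to 102 CPM per kb, then *Igf2r* at 31.0 to 42.7 and *Igf1r* at 15.1 to 21.2. At the lower end *Igf1* lay between 3.26 and 3.98 CPM per kb, *Igfbp5* between 1.72 and 2.34, and *Igf2* between 0.034 and 0.255. *Igfbp4* (1.70 to 25.7) and *Igfbp6* (2.54 to 23.2) had no fixed place in this order, since *Igfbp4* was above *Igf1* in A and below it in B, and *Igfbp6* the reverse, with both hairpins. The ranges of *Igfbp3*, *Igf2r*, *Igf1r*, *Igf1*, *Igfbp5* and *Igf2* did not overlap, so that their order was the same in all 4 libraries.

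**Figure D1:**
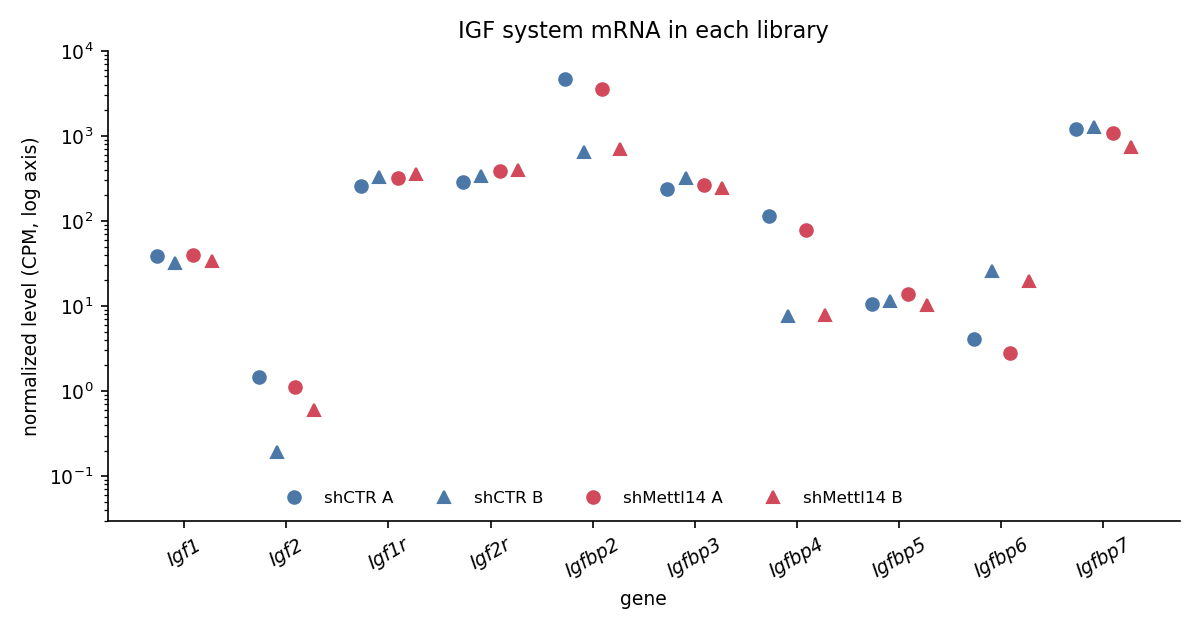
Normalized level (CPM, log axis) of the 10 IGF system genes, 1 point per library; color gives the hairpin and shape the letter (circle A, triangle B). *Igfbp2* ranges from 640 to 4646 CPM and *Igfbp4* from 7.53 to 114 CPM with circles above triangles, *Igfbp6* from 2.83 to 25.8 CPM with triangles above circles.

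Promoter sequences are shown for the 3 binding proteins whose levels went with the letter (*Igfbp2*, *Igfbp4*, *Igfbp6*) and the 2 members whose hairpin groups did not overlap (*Igf2r*, *Igfbp7*). The latter is a common trait, found for 13.3% of all genes on the lower side and 14.7% on the higher side. All 10 members matched the RefSeq promoter table on GRCm38.p6, with 14 annotated starts, and each sequence runs from 250 bases before to 50 after a start, on the strand of the gene. Capitals mark GC boxes (GGGCGG, the core site of SP1-type factors), TATA boxes (TATAAA) and E boxes (CACGTG), read on both strands.
Igfbp2, chr1:72824230-72824529, plus strand: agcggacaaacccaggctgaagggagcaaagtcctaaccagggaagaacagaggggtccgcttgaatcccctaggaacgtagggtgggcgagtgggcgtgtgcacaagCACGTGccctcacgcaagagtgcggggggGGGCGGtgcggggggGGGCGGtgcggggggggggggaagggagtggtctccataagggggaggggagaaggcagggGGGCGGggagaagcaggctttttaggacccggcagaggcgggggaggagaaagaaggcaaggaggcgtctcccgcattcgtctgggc
Igfbp4, chr11:99040994-99041293, plus strand: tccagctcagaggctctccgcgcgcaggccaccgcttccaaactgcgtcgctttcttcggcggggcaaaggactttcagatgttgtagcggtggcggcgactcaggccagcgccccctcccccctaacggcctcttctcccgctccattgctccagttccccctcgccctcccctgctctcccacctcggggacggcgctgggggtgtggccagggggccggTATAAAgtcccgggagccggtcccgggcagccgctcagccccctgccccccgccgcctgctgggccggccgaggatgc
Igfbp6, chr15:102143936-102144235, plus strand: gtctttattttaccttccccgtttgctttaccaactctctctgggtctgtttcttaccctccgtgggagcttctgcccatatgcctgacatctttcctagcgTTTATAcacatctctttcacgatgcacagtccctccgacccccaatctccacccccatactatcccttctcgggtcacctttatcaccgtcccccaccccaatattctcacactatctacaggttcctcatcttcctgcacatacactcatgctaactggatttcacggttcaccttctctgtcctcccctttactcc
Igf2r, chr17:12769657-12769956, minus strand: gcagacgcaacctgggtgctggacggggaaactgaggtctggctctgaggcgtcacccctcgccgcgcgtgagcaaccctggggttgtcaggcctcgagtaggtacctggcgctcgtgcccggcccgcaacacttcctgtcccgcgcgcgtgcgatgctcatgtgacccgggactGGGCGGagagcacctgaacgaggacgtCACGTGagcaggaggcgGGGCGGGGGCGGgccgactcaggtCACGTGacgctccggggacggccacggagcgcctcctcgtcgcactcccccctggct
Igfbp7, chr5:77407996-77408295, minus strand: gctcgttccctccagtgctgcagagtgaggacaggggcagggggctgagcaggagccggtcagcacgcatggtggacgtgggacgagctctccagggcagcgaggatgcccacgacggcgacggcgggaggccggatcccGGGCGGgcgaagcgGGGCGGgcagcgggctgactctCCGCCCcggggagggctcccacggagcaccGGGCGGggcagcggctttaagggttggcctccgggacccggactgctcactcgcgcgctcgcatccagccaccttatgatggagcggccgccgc

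The first *Igfbp2* promoter held 3 GC boxes and 1 E box and no TATA box, and the second *Igfbp2* start in the table held none of the words. *Igfbp4*, which moved with *Igfbp2* between letters, shared none of these words with it, since it had 0 GC boxes and 1 TATA box at −28 from the start. The *Igfbp6* window had 0 GC boxes and 1 TATA box, which reads on the other strand, around a RefSeq start that lies before the GENCODE start of the gene, and was the least GC-rich of the 5 at 49.7%, against 67.0% for *Igfbp2*, 71.3% for *Igfbp4*, 70.7% for *Igf2r* and 73.3% for *Igfbp7*. *Igf2r* had 3 GC boxes, 2 of which abut, and 2 E boxes, and *Igfbp7* had 4 GC boxes. Of the 32851 promoters in the table, 35.7% held a GC box, 13.6% a TATA box and 7.15% an E box, and their median GC content was 52.7%. The CArG box, bound by serum response factor and frequent in smooth muscle genes, was in 1.63% of all promoters and in 1 of the 14 member promoters, a start of *Igf2*. These matches describe the letters of each window and say nothing of binding.

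The first question of the design, whether lowering *Mettl14* moved the IGF system, gave no called gene. With edgeR's quasi-likelihood test of shMettl14 against shCTR over 18916 genes, 0 of the 10 members had a Benjamini-Hochberg adjusted p under 0.05, as did 0% of all genes tested. Before adjustment 0 members had a p under 0.05 on either side, against 1.01% of all genes tested on the lower side (191 genes) and 0.656% on the higher side (124 genes), and DESeq2's Wald test also called 0 members, and 5 of all genes. The smallest unadjusted edgeR p of a member was 0.13. Of the 10 genes 5 were lower and 5 higher, with a median log2 difference of −0.04 against 0.01 over all genes. Within both letters 2 members were lower (*Igfbp6*, *Igfbp7*) and 3 higher (*Igf1*, *Igf1r*, *Igf2r*), where 27.6% of all genes were lower in both letters and 30% higher in both. Both shMettl14 libraries were below both shCTR libraries for 1 member, *Igfbp7*, against 13.3% of all genes, and above them for 1, *Igf2r*, against 14.7%. These shares are near those of all genes, and with 2 libraries on each side the smallest two-sided p of an exact permutation test is 0.333. The low count of calls does not show that the genes were alike in both groups. The edgeR fit has no term for the letter and so counts the gap between letters as spread. In simulated libraries the letters differed by the mean measured gap of each gene, set the same for both hairpins. There this fit called none of the genes made to change. A fit with the letter as a block called all of them, which a gap shared exactly by both hairpins favors. The measured gap was not the same with both (median size 0.51 with shCTR and 0.34 with shMettl14 over all genes). The simulation therefore cannot tell how well the block recovers changes here. On the measured libraries the fit with the block called 0 members and 9 of all genes. Recovery of differences as small as those of the members was not tested.

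**Figure D2:**
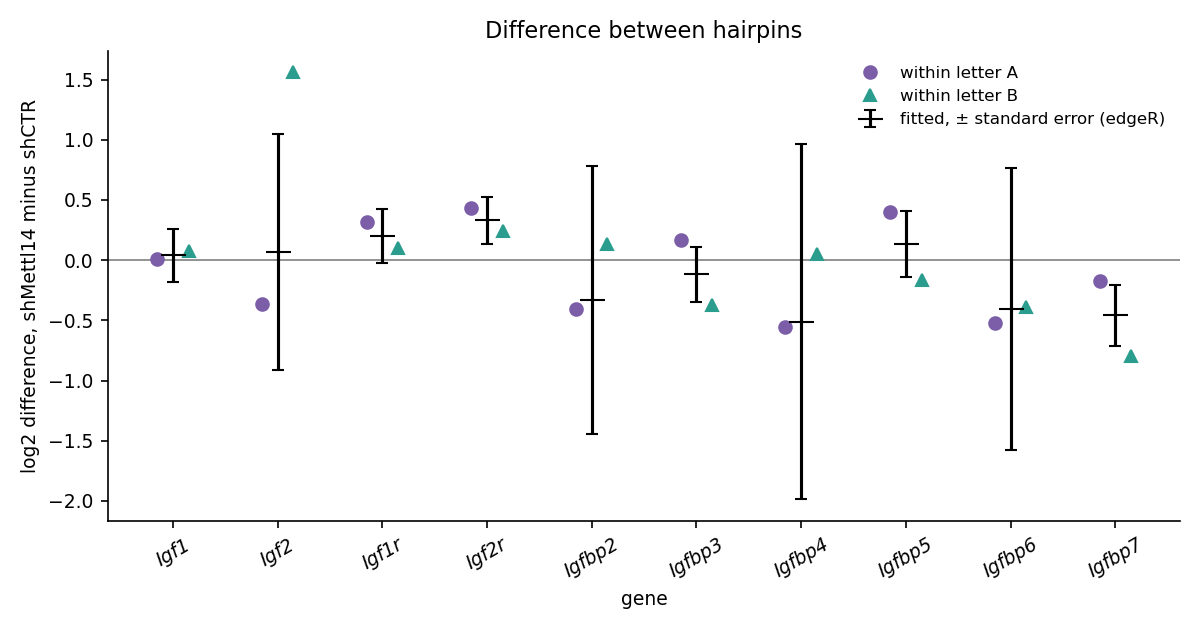
Log2 difference between shMettl14 and shCTR for each IGF system gene; the black bar is the edgeR fit over 2 libraries per group with its standard error, the circle and triangle are the differences within letters A and B. Only for *Igf1*, *Igf1r*, *Igf2r*, *Igfbp6* and *Igfbp7* do both letters lie on the same side of 0, and the standard errors of *Igfbp2*, *Igfbp4*, *Igfbp6* and *Igf2* are the widest.

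Of the ligands, *Igf1* (ENSMUSG00000020053, chromosome 10, bases 87858265 to 87937042 of GRCm38, plus strand) had 4442 and 3485 counts in shCTR A and B and 4676 and 4424 in shMettl14 A and B. These are 39.1 and 32.3 CPM with shCTR and 39.4 and 34.0 CPM with shMettl14, so the groups overlapped and the letters differed more than the hairpins. Its log2 difference of 0.04 (standard error 0.22, edgeR) had no stable sign, going to −0.095 without shCTR B and −0.068 without shMettl14 A. *Igf2* (ENSMUSG00000048583, minus strand of chromosome 7 from 142650766 to 142666816), an imprinted growth factor gene of the fetus, was scarce, with 166 and 21 counts in shCTR A and B and 134 and 79 in shMettl14 A and B. In CPM these were 1.46 and 0.194 with shCTR and 1.13 and 0.607 with shMettl14, and shCTR B was the low library. The log2 difference was 0.07 (standard error 0.98), lower within A (−0.37) and higher within B (1.56), and it moved to 2.16 without shCTR A, to −0.76 without shCTR B and to −0.45 without shMettl14 A. In GENCODE M21, 62.8% of the exon bases of *Igf2* overlap a gene on the same strand, *Gm49394*, so reads could be shared or dropped there. The neighboring imprinted RNA *H19* had 126 and 117 counts with shCTR and 108 and 97 with shMettl14 (A and B), and the antisense *Igf2os* 0 and 0 against 4 and 7.

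Both receptors were higher with shMettl14 in each letter. *Igf2r* (ENSMUSG00000023830, chromosome 17, bases 12682406 to 12769664, minus strand) had 32777 and 36306 counts in shCTR A and B and 46159 and 51661 in shMettl14 A and B. Its levels were 289 and 336 CPM with shCTR and 389 and 397 CPM with shMettl14, and the groups did not overlap. The log2 difference was 0.33 (standard error 0.19, unadjusted p = 0.15 from edgeR), with 0.43 within A and 0.24 within B, and it lay between 0.23 and 0.44 with each library left out in turn. *Igf1r* (ENSMUSG00000005533, chromosome 7, bases 67952827 to 68233668, plus strand) had 28849 and 35818 counts in shCTR A and B and 37644 and 46394 in shMettl14 A and B, or 254 and 332 CPM against 317 and 357 CPM. Here shCTR B stood above shMettl14 A, so the groups overlapped. The log2 difference of *Igf1r* was 0.20 (standard error 0.22, unadjusted p = 0.41 from edgeR), with 0.32 within A and 0.11 within B, and it was 0.03 without shCTR A and 0.40 without shCTR B. *Insr*, the insulin receptor gene, which is related to *Igf1r* and was listed with the other family genes, had 42.4 and 48.7 CPM in shCTR A and B and 61.5 and 62.2 CPM in shMettl14 A and B, with no overlap between the groups. Its log2 difference was 0.44 (standard error 0.19, unadjusted p = 0.071 from edgeR, adjusted p = 1.0), and it was higher in both letters. The summed level of the smooth muscle markers was lower in the same shMettl14 libraries, and its part in these values was not tested.

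Among the binding proteins, *Igfbp7*, which binds IGFs with lower affinity than the others and is secreted by vascular cells, had the smallest unadjusted p of the members. *Igfbp7* (ENSMUSG00000036256, chromosome 5, bases 77349240 to 77408041, minus strand) had 138329 and 137448 counts in shCTR A and B and 128185 and 95474 in shMettl14 A and B. These are 1218 and 1273 CPM (1245 ± 38.7, SD, n = 2) with shCTR and 1079 and 734 CPM (907 ± 244, SD, n = 2) with shMettl14, so shMettl14 B was the lowest library and no shMettl14 library reached the shCTR range. Its log2 difference was −0.46 (standard error 0.25, unadjusted p = 0.13 from edgeR), with −0.17 within A and −0.79 within B. It was −0.76 without shMettl14 A and −0.20 without shMettl14 B, so the size rests on shMettl14 B although the sign does not. The endothelial marker sum was likewise lower in shMettl14 B (2409 CPM) than in shCTR B (3914 CPM), and its part in the *Igfbp7* value was not tested. *Emcn* was the largest part of that gap, at 2099 CPM in shCTR B and 1077 CPM in shMettl14 B. In the same order, *Pecam1* (820 and 545) and *Cdh5* (818 and 617) were also lower. *Tie1* (136 and 134) and *Vwf* (18.9 and 18.5) were nearly even, and *Cldn5* was higher (0.574 and 1.15). For *Igfbp7*, 7.03% of the exon bases overlap *Polr2b* on the other strand, and the strand setting of the counting was not given in the sources used here.

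*Igfbp3* (ENSMUSG00000020427, chromosome 11 from 7206086 to 7213923), the main IGF carrier of the blood, and *Igfbp5* (ENSMUSG00000026185, chromosome 1 from 72857932 to 72874884), a binding protein that also attaches to extracellular matrix, showed small differences of mixed sign. *Igfbp3* had 234 and 318 CPM in shCTR A and B and 263 and 245 CPM in shMettl14 A and B, a log2 difference of −0.12 (standard error 0.23) that was 0.17 within A and −0.38 within B. *Igfbp5* had 10.6 and 11.6 CPM in shCTR A and B and 14.0 and 10.4 CPM in shMettl14 A and B, a log2 difference of 0.13 (standard error 0.27) that was 0.40 within A and −0.17 within B. Both differences were smaller than their standard errors, and the shMettl14 B library was the lowest of the 4 for *Igfbp5* and shCTR A for *Igfbp3*. The sign of *Igfbp3* turned without shCTR B (0.12) and that of *Igfbp5* without shMettl14 A (−0.10).

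*Igfbp2*, *Igfbp4* and *Igfbp6* were set apart by the letters rather than the hairpins. *Igfbp2* (ENSMUSG00000039323, chromosome 1 from 72824503 to 72852474), a binding protein that favors IGF2, had 527725 and 69113 counts in shCTR A and B and 416371 and 91269 in shMettl14 A and B. In CPM these were 4646 and 640 with shCTR and 3506 and 702 with shMettl14, and both A libraries stood above both B libraries. In the A libraries *Igfbp2* ranked 12 (shCTR) and 11 (shMettl14) of all genes by CPM and in the B libraries 199 and 153. *Igfbp4* (ENSMUSG00000017493, chromosome 11 from 99041244 to 99054392), an inhibitory binding protein that PAPP-A cuts, had 12908 and 813 counts in shCTR A and B and 9180 and 1016 in shMettl14 A and B. Its levels were 114 and 7.53 CPM with shCTR and 77.3 and 7.81 CPM with shMettl14, again with A above B. *Igfbp6* (ENSMUSG00000023046, chromosome 15 from 102144362 to 102149511), which prefers IGF2 over IGF1, went the other way, with 463 and 2785 counts in shCTR A and B and 336 and 2564 in shMettl14 A and B. These were 4.08 and 25.8 CPM with shCTR and 2.83 and 19.7 CPM with shMettl14, so both B libraries stood above both A libraries.

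**Figure D3:**
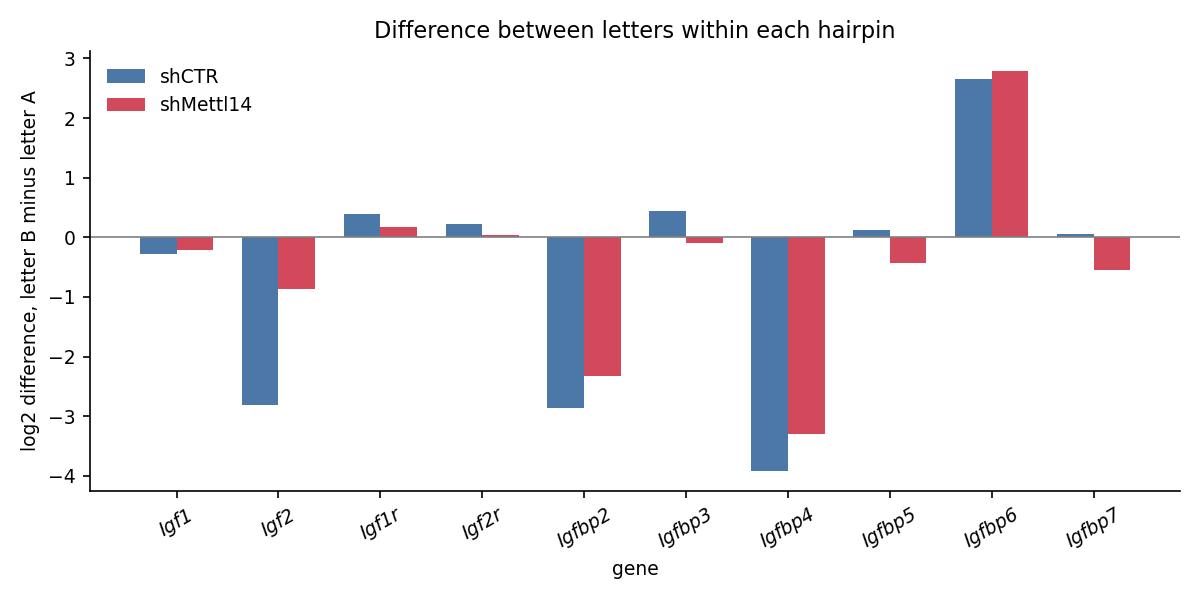
Log2 difference between the libraries of letter B and letter A (B minus A), within shCTR and within shMettl14, for each IGF system gene; each bar is 1 library against 1. *Igfbp2* and *Igfbp4* lie below −2 and *Igfbp6* above 2 with both hairpins, and *Igf2* is negative with both.

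The difference between letters, given here as a description without a test, was −2.86 with shCTR and −2.32 with shMettl14 on the log2 scale for *Igfbp2* (B minus A), which is 7.26-fold and 5.0-fold higher in A. For *Igfbp4* it was −3.91 and −3.30, or 15.1-fold and 9.88-fold higher in A, and for *Igfbp6* it was 2.66 and 2.79, or 6.30-fold and 6.93-fold higher in B. The hairpin difference of the same genes within a letter was −0.41 (A) and 0.13 (B) for *Igfbp2*, −0.56 and 0.05 for *Igfbp4*, and −0.52 and −0.39 for *Igfbp6*. With both hairpins 2 members were over 2-fold higher in A, against 4.73% of all genes, and 1 was over 2-fold higher in B, against 3.83%. By the mean of the 2 differences, 0.888% of all genes differed more between letters than *Igfbp4*, 1.88% more than *Igfbp6* and 2.19% more than *Igfbp2*. The other members were not of this kind, with *Igf2* at −2.81 with shCTR and −0.88 with shMettl14 and the remaining 6 within 0.56 on either side of 0, and the median size of the difference over the 10 (0.41 with shCTR and 0.50 with shMettl14) was close to that over all genes (0.51 and 0.34).

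Other lists also differed between the letters. The smooth muscle markers moved in both directions, with *Myh11*, smooth muscle myosin heavy chain, at 338 and 101 CPM in shCTR A and B and 233 and 75 in shMettl14 A and B, and *Myocd*, the cofactor of smooth muscle gene transcription, at 0.546 and 7.10 against 0.918 and 6.60. Among adventitial fibroblast markers, *Scara5* was at 6.15 and 0.898 CPM in shCTR A and B and 6.32 and 1.22 in shMettl14 A and B, while *Dcn* was higher in B (68.3 and 160 against 72.3 and 120). The endothelial marker *Emcn* was also higher in B, at 649 and 2099 CPM with shCTR and 484 and 1077 CPM with shMettl14. In all, 2 of 9 fibroblast markers were over 2-fold higher in A with both hairpins and 0 in B, 1 of 8 endothelial markers in B and 0 in A, and 1 of 8 smooth muscle markers in each. The part of these cell type markers in the binding protein differences was not tested, and what the letters stand for cannot be told apart from the samples that bear them.

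The fitted hairpin differences of these 3 genes had wide errors in the edgeR fit without a term for the letter, which counts the letter gap as spread. The log2 difference was −0.33 (standard error 1.11) for *Igfbp2*, −0.51 (standard error 1.48) for *Igfbp4* and −0.41 (standard error 1.17) for *Igfbp6*, with unadjusted p of 0.78, 0.74 and 0.74 from edgeR. Their signs turned in fits that leave out 1 library and so set unequal numbers of the letters against each other, to 1.72 for *Igfbp2* and 2.50 for *Igfbp4* without shCTR A, to 0.41 and 0.35 without shMettl14 B, and for *Igfbp6* to 1.46 without shCTR B and 0.41 without shMettl14 A. Without shMettl14 A *Igfbp2* stood at −1.92 and *Igfbp4* at −2.96, and without shMettl14 B *Igfbp6* at −2.39.

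Summed per kilobase of exon, the mRNA of the 6 binding proteins came to 3629 and 1528 CPM per kb in shCTR A and B and to 2898 and 1087 CPM per kb in shMettl14 A and B. *Igfbp2* made 69.3% and 22.7% of this sum in shCTR A and B and 65.5% and 35.0% in shMettl14 A and B, and *Igfbp7* 27.8% and 68.9% and then 30.8% and 55.9%. *Igfbp3* held between 2.06% and 7.21%, and *Igfbp4*, *Igfbp5* and *Igfbp6* at most 1.63% each. Without *Igfbp2* the sums were 1113 and 1181 CPM per kb with shCTR and 999 and 707 with shMettl14 (A and B), and the gap between the letters seen in the full sum was thus largely that of *Igfbp2*. The sum was lower with shMettl14 than with shCTR within each letter, with or without *Igfbp2*, and this was not tested. Without *Igfbp2* the sum was mostly *Igfbp7*, so it largely repeats the levels of that gene. Within B *Igfbp7* stood at 1053 CPM per kb with shCTR and 607 with shMettl14, while *Igfbp2* stood at 346 and 380. Within A *Igfbp7* stood at 1007 and 893 and *Igfbp2* at 2516 and 1898.

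**Figure D4:**
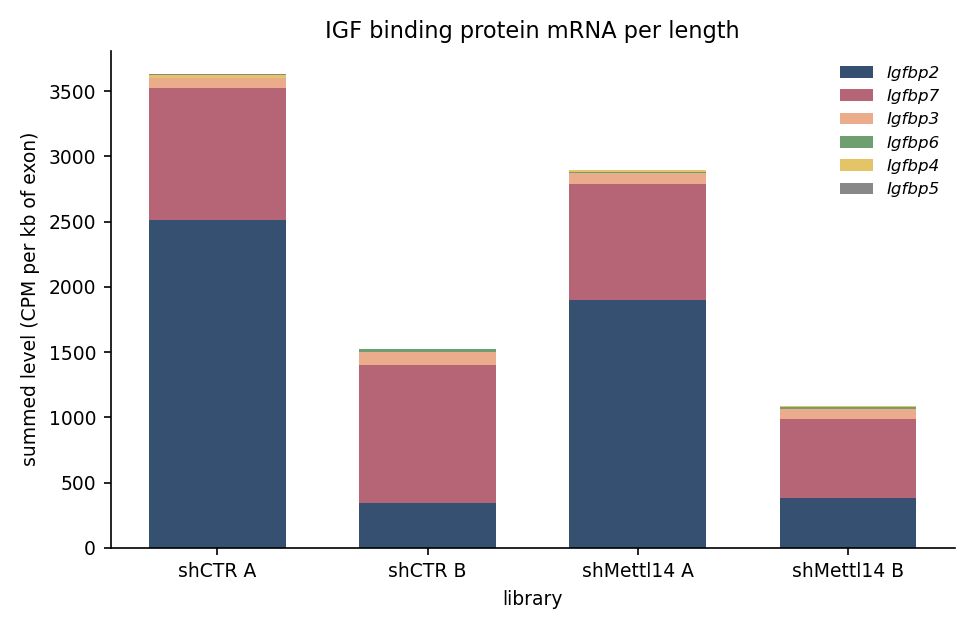
Summed mRNA level of 6 IGF binding protein genes in each library, in CPM per kb of merged exon length, stacked by gene. The A libraries reach 3629 and 2898 and are mostly *Igfbp2*, whereas the B libraries reach 1528 and 1087 and are mostly *Igfbp7*.

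Since METTL14 serves m6A writing, the members' transcripts were also read for GGACT, the most common form of the m6A consensus word, in the coding transcript of GENCODE M21 with the longest coding part. No m6A measurement of these genes was used, and a word is not a methylated site. *Igf1r* held 14 copies in 11409 bases and *Igf2r* 12 in 8887 bases, all 12 in the coding part, while *Igfbp7* held 1, *Igfbp3* 1 and *Igfbp2* 0. Per kilobase the members ranged from 0 (*Igfbp2*) to 2.70 (*Igfbp6*), with a median of 1.20 against 1.05 over 14346 tested genes. The copies of the receptors, *Igfbp4* and *Igfbp7* nearest to the stop codon are shown with 10 bases on each side and the word in capitals.
Igf1r, word at chr7:68214950-68214954, plus strand: tctacgagacGGACTactaccggaa
Igf2r, word at chr17:12685690-12685694, minus strand: agagtataaaGGACTctcagagcgg
Igfbp4, word at chr11:99051598-99051602, plus strand: agcaggtgggGGACTcagtgccccc
Igfbp7, word at chr5:77407968-77407972, minus strand: gggtgcagccGGACTgctgctcctg

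The *Igfbp4* word begins 19 bases after the stop codon, where m6A is known to be frequent. In *Igf1r*, *Igf2r* and *Igfbp7* the nearest copy was in the coding part. *Igfbp5*, not shown, also had a word close to the stop codon, beginning 42 bases before its end. *Igfbp7* and *Igf2r*, whose hairpin groups did not overlap, had 0.833 and 1.35 copies per kilobase, 1 below and 1 above the median of 1.05. Such a lack of overlap was found for 13.3% of all genes on the lower side and 14.7% on the higher side. The *Igfbp7* value rests on 1 word, and a link between words and mRNA levels was not tested.

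The wider IGF pathway was read from 9 lists of 66 genes, of which 61 were tested. None of the 61 had an adjusted or unadjusted p under 0.05 in edgeR, 32 were lower and 29 higher with shMettl14, and the median log2 difference was −0.01 (0.01 over all genes). Within both letters 21 were lower and 21 higher, against 27.6% and 30% of all genes. Both shMettl14 libraries were above both shCTR libraries for 12 of them and below for 6, against 14.7% and 13.3% of all genes.

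**Figure D5:**
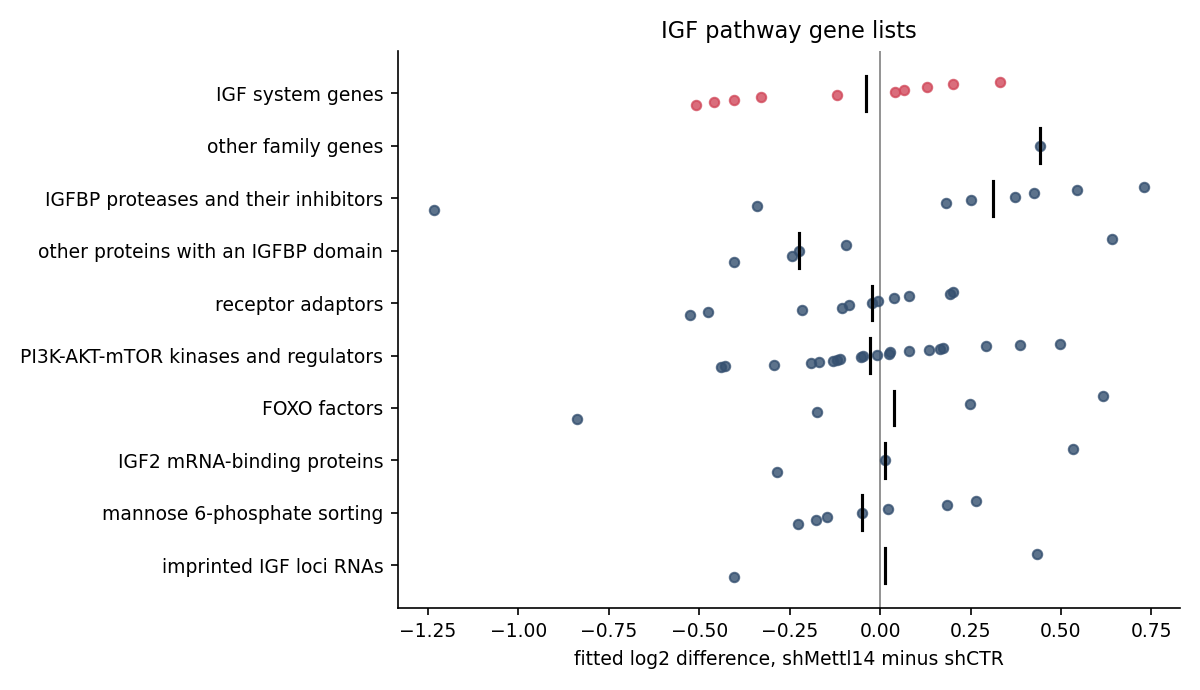
Fitted log2 difference (shMettl14 minus shCTR, edgeR, 2 libraries per group) of each tested gene, 1 point per gene, by list; the black line is the median of the list and red marks the 10 IGF system genes. Points lie on both sides of 0 in every list with more than 1 tested gene, and *Pappa2* (−1.23) is the furthest from 0.

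In the list of proteases that cut IGF binding proteins and their inhibitors, 6 of 8 genes were higher and 2 lower. Of all 18916 genes tested 9686 were higher. The list pools proteases with inhibitors, so this count has no single meaning for the cutting of binding proteins. The median was 0.31 and the smallest unadjusted p 0.070 from edgeR. The sign was the same in both letters for all 8, where 27.6% of all genes were lower in both and 30% higher. Within B the difference was only 0.02 for *Adam9* and 0.02 for *Adam12*, and *Adam28* had 0 counts in shCTR B and 4 in shMettl14 B. *Stc2*, which encodes stanniocalcin 2, an inhibitor of PAPP-A, had 6.07 and 4.35 CPM in shCTR A and B and 9.31 and 7.99 CPM in shMettl14 A and B, a log2 difference of 0.73 (standard error 0.32, unadjusted p = 0.070 from edgeR, adjusted p = 1.0). *Pappa2*, a protease related to PAPP-A, had 0.511 and 1.37 CPM with shCTR and 0.236 and 0.561 CPM with shMettl14, a log2 difference of −1.23 (standard error 0.74) that was −0.36 without shCTR B, −0.74 without shMettl14 A and −1.98 without shMettl14 B. Both *Stc2* libraries with shMettl14 were above both shCTR libraries, while for *Pappa2* shMettl14 B lay above shCTR A. *Adam9*, a membrane protease and the most abundant gene of the list, was nearly even in B (933 and 930 CPM in shCTR A and B, 1172 and 942 in shMettl14 A and B), with a log2 difference of 0.18 (standard error 0.20) that was 0.02 without shMettl14 A and 0.34 without shMettl14 B.

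Of 5 other proteins with an IGFBP domain, 4 were lower and 1 higher. *Crim1*, a membrane protein that binds BMPs, was the most abundant at 826 and 1469 CPM in shCTR A and B and 911 and 1239 CPM in shMettl14 A and B, a log2 difference of −0.10 (standard error 0.35) that became 0.38 without shCTR B and 0.11 without shMettl14 A. *Esm1*, endocan of endothelial cells, followed the letters as *Igfbp6* did, with 49.7 and 226 CPM with shCTR and 42.5 and 166 CPM with shMettl14 (A and B). Its log2 difference of −0.40 (standard error 0.92) turned to 1.07 without shCTR B and 0.27 without shMettl14 A. *Htra3*, a serine protease, was at 0.64 (standard error 0.39), with 0.30 without shCTR B and 1.10 without shCTR A.

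The receptor adaptors had 7 genes lower and 4 higher of 11. *Grb10*, an imprinted inhibitor of insulin and IGF receptor signaling, was the most abundant, with 499 and 262 CPM in shCTR A and B and 454 and 254 CPM in shMettl14 A and B, a log2 difference of −0.10 (standard error 0.43) that turned to 0.44 without shCTR A and 0.26 without shMettl14 B. The furthest to each side were *Grb14*, another inhibitory adaptor, at −0.53 (standard error 0.38) and *Ptpn11*, the phosphatase SHP2, at 0.20 (standard error 0.21). *Grb14* was −0.23 without shCTR B, −0.22 without shMettl14 A and −0.91 without shMettl14 B, and *Ptpn11* 0.11 without shCTR B, 0.06 without shMettl14 A and 0.33 without shMettl14 B. Of 20 PI3K, AKT and mTOR genes 11 were lower and 9 higher, from *Rheb*, the activator of mTORC1, at −0.44 (standard error 0.25) to *Rictor*, a subunit of mTORC2, at 0.50 (standard error 0.28), and *Akt1*, the most abundant, was at −0.19 (standard error 0.20). Without shCTR A these were −0.17 for *Rheb*, 0.24 for *Rictor* and −0.07 for *Akt1*, and without shCTR B −0.67, 0.81 and −0.30. *Rictor* was also 0.31 without shMettl14 B. *Akt1* and *Rheb* were lower and *Rictor* higher in both shMettl14 libraries than in both shCTR libraries.

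The FOXO factors, which AKT keeps out of the nucleus, had 2 genes lower and 2 higher, with *Foxo1* at −0.17 (standard error 0.24, and 0.08 without shCTR B), *Foxo4* at 0.62 (standard error 0.44) and *Foxo6*, at 6 to 33 counts a library, at −0.84 (standard error 0.95). *Foxo4* was 1.37 without shCTR A and 0.12 without shCTR B, and *Foxo6* −2.42 without shMettl14 A and −0.09 without shMettl14 B. The IGF2 mRNA-binding proteins, which bind *Igf2* and other mRNAs and are known readers of m6A, had 1 gene lower and 2 higher. *Igf2bp1* had 2.50 and 2.47 CPM in shCTR A and B and 3.17 and 4.03 CPM in shMettl14 A and B, without overlap, a log2 difference of 0.53 (standard error 0.35, unadjusted p = 0.18 from edgeR) that was 0.35 without shMettl14 B. *Igf2bp2*, the most abundant of the 3, was at −0.29 (standard error 0.32), but at 0.15 without shCTR B. Of 7 genes of mannose 6-phosphate sorting, the lysosomal route that *Igf2r* serves, 4 were lower and 3 higher, with *Gga3* at 0.27 (standard error 0.20), *M6pr*, the other mannose 6-phosphate receptor, at 0.18 (standard error 0.21, but 0.005 without shMettl14 B and 0.35 without shMettl14 A) and *Gga1* at −0.23 (standard error 0.26, and 0.0041 without shMettl14 B). *Airn*, the imprinted antisense RNA of the *Igf2r* locus, had 5.03 and 11.8 CPM in shCTR A and B and 10.8 and 11.9 CPM in shMettl14 A and B, a log2 difference of 0.44 (standard error 0.46) that was −0.05 without shCTR A, which was the low library. *H19*, at the *Igf2* locus, was at −0.41 (standard error 0.41), with both shMettl14 libraries below both shCTR libraries, and at −0.27 without shMettl14 B. Of the remaining family genes, *Igfbp1* had 6 counts in shCTR A and 0 in the other libraries, *Igfals*, the acid-labile subunit of the circulating IGF complex, 17 and 0 with shCTR and 7 and 0 with shMettl14 (A and B), and *Ins2* 0 in all 4 libraries, and none of these passed the filter.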

How the data were processed

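Poly-A mRNA libraries of 4 VSMC samples were analyzed, 2 with shCTR and 2 with shMettl14, grouped by their titles. Per the labels and the study's methods, the authors made stranded libraries and ran STAR on mm10 (GRCm38) and then featureCounts, which gave the raw counts per gene symbol that were deposited. The strand setting of the counting and treatment of reads with several places are not given in the sources used here. Counts were tested with edgeR 4.0.16 in R 4.3.3 (TMM, filterByExpr, robust quasi-likelihood fit, no block), with Benjamini-Hochberg adjustment over 18916 genes and a threshold of 0.05. Standard errors are the absolute log2 difference over the square root of F. Differences within a letter or hairpin used log2 CPM with a prior count of 2. Levels per length used merged exons of GENCODE M21 (GRCm38). Alternatives were DESeq2 1.42.0, RLE and upper-quartile factors, a replicate block, each library left out, a minimum of 10 counts per library, and no filter. Members, lists and the 2-fold limit between letters were chosen with earlier results of these data known. By rule the text names *Mettl14*, all members and, per pathway list, the most abundant gene and the furthest on each side. *Insr* is the single tested gene of its list. The marker genes, *Igf2os*, *Igfbp1*, *Igfals*, *Ins2*, *Adam12* and *Adam28* were named outside the rule, after their values were seen. The fits were tested on simulated data with 200 changed genes, each changed by more than the fitted difference of any member, and with the same dispersion for every gene. With letters alike, each fit called all of them. With letters that differ by the mean measured gap, set the same for both hairpins, the fit without the block called none, the replicate block all and DESeq2 most. Recovery of differences as small as those of the members was not tested.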

Additional observations from a re-analysis of the deposited data

How the results depend on the processing

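The direction of all 10 members held under RLE factors, upper-quartile normalization, no low-count filter, at least 10 counts in every library, DESeq2 and the replicate block, and 0 members were called under any alternative. The number of all genes called moved from 0 to 5 with DESeq2, 9 with the replicate block and between 0 and 1 with 1 library left out. Genes with an unadjusted p under 0.05 numbered 1941 with the replicate block and 78 to 1399 with 1 library left out. Members at that level numbered 2 of 10 with the replicate block, where 1941 of the 18916 genes tested were at that level. These members were *Igfbp6* (adjusted p = 0.44 from edgeR) and *Igfbp7* (adjusted p = 0.42 from edgeR). With the replicate block the log2 difference was −0.14 (standard error 0.18) for *Igfbp2*, −0.26 (standard error 0.18) for *Igfbp4*, −0.45 (standard error 0.18) for *Igfbp6* and −0.48 (standard error 0.18) for *Igfbp7*, so that the wide errors of the first 3 came with the fit that leaves the letters out. The letters are not stated to pair the libraries. Same-letter libraries deviated together from their group means (r = 0.764 across genes, log2 of CPM plus 0.5), a hint from the data only, and genes are not independent replicates. *Mettl14* passed the threshold with DESeq2 (−2.09, adjusted p = 3.0e-07) and with the replicate block (−2.08, adjusted p = 0.0039).

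With 1 library left out, the number of members lower with shMettl14 lay between 3 and 7, and 7 of 10 members changed sign in at least 1 such fit, while *Igf1r*, *Igf2r* and *Igfbp7* did not. A fit that leaves out 1 library takes the spread of the lone library from the other group and sets unequal numbers of the letters against each other. The log2 differences over these fits ran for *Igf1* from −0.095 to 0.19, *Igf2* from −0.76 to 2.16, *Igfbp2* from −1.92 to 1.72, *Igfbp3* from −0.32 to 0.12, *Igfbp4* from −2.96 to 2.50, *Igfbp5* from −0.10 to 0.34, *Igfbp6* from −2.39 to 1.46, *Esm1* from −1.69 to 1.07, *Crim1* from −0.45 to 0.38, *Grb10* from −0.59 to 0.44, *Foxo1* from −0.39 to 0.082, *Igf2bp2* from −0.62 to 0.15, *Gga1* from −0.49 to 0.0041 and *Airn* from −0.048 to 1.17.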
